A study of Drosophila melanogaster with 4 samples.

Results

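The achaete-scute complex is a group of 4 related proneural genes, ac, sc, l(1)sc and ase, near the telomere of the X chromosome of Drosophila melanogaster. It was examined in a list of regions bound by Notch tagged with green fluorescent protein (GFP) in larvae. The peaks belonging to it were those on X that overlapped the span from ac to ase with 20 kb on either side, a window of 133 kb. Of the 4198 peaks in the list, 789 lay on X and 1 lay in this window. None of the 4 genes was overlapped by a peak or had one within 5 kb. Among genes of X of every length, 47.5% had a peak that near.

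The study used chromatin immunoprecipitation and sequencing (ChIP-seq) of whole larvae at the wandering L3 stage. By the labels there were 2 ChIP libraries, made with the rabbit polyclonal antibody GFP ab290, and 2 libraries of input DNA. All 4 libraries came from the strain Notch-GFP, with the genotype PBac{y[+]-attP-3B}VK00033 and the Notch genomic coding region as transgene; the label for sex reads unknown. Larvae were grown at 25 °C and fixed in 1.8% formaldehyde for 15 min. The protocol text names y; bw cn sp flies as the culture, which differs from the strain label. Untagged larvae and control antibodies were not analysed here.

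The submitters' 1 peak list covers the series as a whole. It gives no value per library, so no peak carries a replicate error and no test between ChIP and input libraries could be made. The score of a peak is the authors' own, and the sources used here name neither its statistic nor its threshold. Read depth is unknown, so a gene without a peak is a gene at which none was called, not one shown to be unbound.

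Proneural genes encode basic helix-loop-helix transcription factors that bind DNA as partners of Daughterless and give ectodermal cells the ability to become neural precursors. Groups of cells first express them together. Notch signalling between these cells then switches them off in all but the cell that becomes the precursor, a process called lateral inhibition, in which Notch acts largely through the repressors of the E(spl) complex. In imaginal discs of late larvae ac and sc are expressed in such clusters and mark where bristles will form. In a whole larva these are few of the cells, and binding in few cells and weak binding in many cannot be told apart in such material.

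The 4 genes lie in the order ac, sc, l(1)sc, ase from the telomere towards the centromere. Gene positions came from a table on release 6 of the genome, whereas the peaks are on release 5, so each gene position on X was lowered by a constant, 33 bp less than 106000 bp. This shift was checked on peaks outside the window, by the share of peak centres within 500 bp of either end of a gene. Over all of X, 38.3% of 788 peaks lay that close to a gene end at the given shift. At 2961 other shifts between 0 and 300 kb the median share was 17.5% and the highest 23.2%. In the first 5 Mb of X, which holds the complex, the share was 25.4% of 201 peaks, against a median of 14.9% and a highest share of 21.9% at the other shifts. In the scan, made in steps of 100 bp, the highest share was reached equally at 106000 and 106100 bp, both there and over all of X, next to the shift used.

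The check was less clear at single places. In bins of 1 Mb along X, from 0 to 1055 of the 2961 other shifts did as well or better, with the most at 3 to 4 Mb. Among the 35 peaks within 1 Mb of sc, outside the window, 40.0% were near a gene end, against a median of 17.1% over other shifts. Among the 20 peaks in the first Mb of X, which holds the complex, 35.0% were, against a median of 15.0%, and 198 of the 2961 other shifts did as well or better, with up to 55.0%. Around br, 30.6% of 108 peaks were near a gene end, against a median of 17.6%. Around N it was 20.3% of 74 peaks, against a median of 13.5%, and 252 of the 2961 other shifts did as well or better. Distances below 500 bp therefore rest on the stated shift and not on the check.

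**Figure D1:**
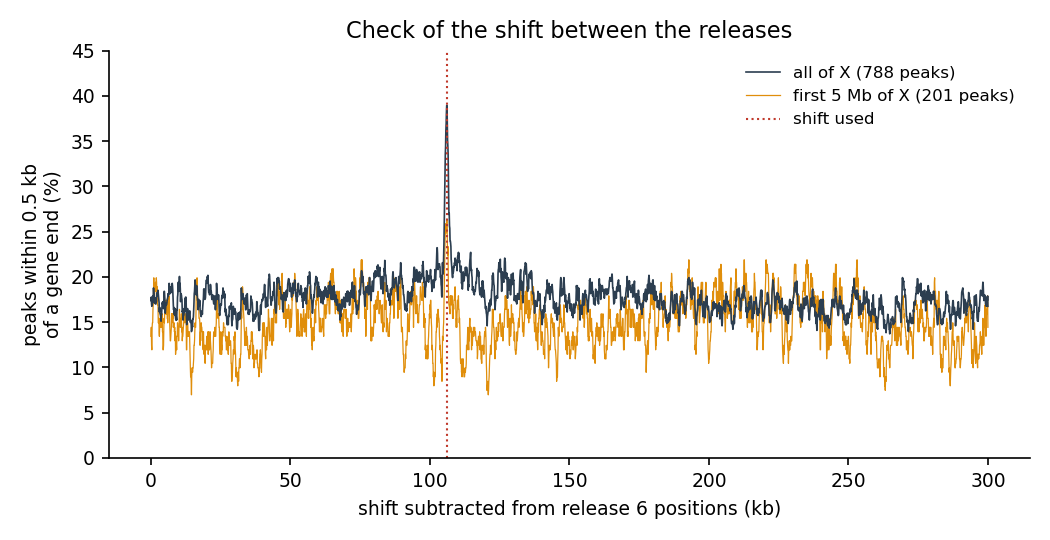
Share of peaks (%) whose centre lies within 0.5 kb of a gene end, plotted against the shift (kb) subtracted from release 6 gene positions, for all of X (dark line, 788 peaks) and its first 5 Mb (orange line, 201 peaks), without the achaete-scute window. Both lines are highest at 106000 and 106100 bp, beside the dotted line at the shift used, where the shares are 38.3% and 25.4%.

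The single peak of the window lay outside the complex proper, on the telomere side of ac (X:255351-255838, release 5). It was 488 bp wide, against a median width of 497 bp over the other 788 peaks of X. Its score was 37.9, which ranked 286 of the 789 peaks of X and 1590 of the whole list. The other peaks of X had a median score of 24.4, with quartiles of 13.2 and 58.4. The peak was therefore of ordinary width and scored above 63.6% of the peaks of X, inside their middle range.

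This peak fell between y, which encodes a protein needed for black cuticle pigment, and the long non-coding RNA gene lncRNA:yar. It was 72 bp beyond the end of y that faces ac, and 593 bp from the near end of lncRNA:yar. It also lay inside CG32816, a gene of 154 kb whose span takes in the whole complex. The gene table gives no strand and no exons, so whether the peak is at the start or the end of y, or in an exon or intron of CG32816, was not determined. The genotype label names a docking construct marked with a wild-type copy of y. Reads that match both copies cannot be told apart from the list, and the part of this in the peak beside y was not tested.

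The proneural genes themselves were free of peaks. For ac, which with sc makes cells competent to form bristles, the peak beside y was the nearest, 8.22 kb away on the telomere side. On its other side the next peak was 122 kb away. The gene ac was thus the only one of the 4 with a peak within 20 kb, which 74.8% of genes of X had.

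The gene sc, which also acts as sisB in the early embryonic count of X chromosomes that decides sex, lay 34.3 kb from the peak beside y. The next peak towards the centromere was 95.7 kb away. Between ac and sc there are 25.1 kb of sequence, and no peak was called in them.

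The gene l(1)sc, which promotes neuroblast formation in the embryonic nerve cord, was the farthest from any peak. Its neighbours were 47.9 kb away on the telomere side and 82.3 kb away on the centromere side. The 12.2 kb between sc and l(1)sc and the 49.9 kb between l(1)sc and ase held no peak.

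The gene ase is expressed in neural precursors after they have been chosen, both in sense organs and in the central nervous system. It was the only member whose nearest peak lay towards the centromere, 30.0 kb away. This peak (X:387184-389207, release 5) had a score of 76.4 and overlapped CG17896 and CG17778. It was the nearest peak outside the window on that side. On the telomere side the nearest outside was a peak with a score of 91.2 (X:172659-173772, release 5), which overlapped ewg and CG3777 and lay 90.3 kb from ac.

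**Figure D2:**
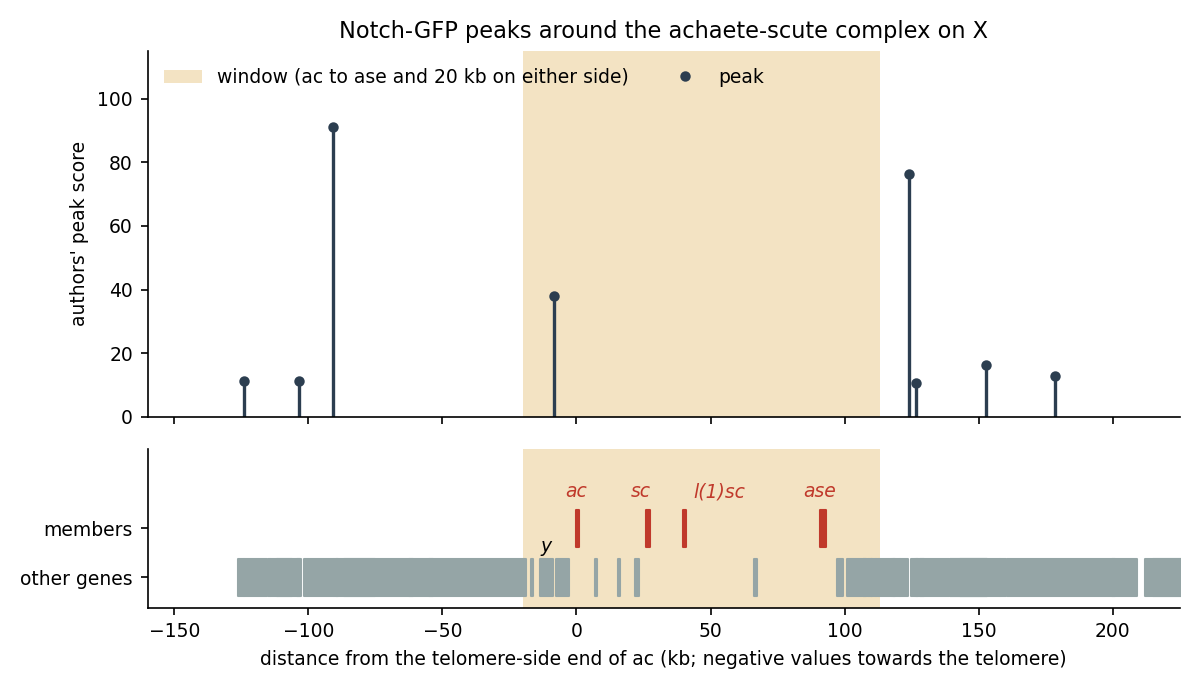
Peaks by their authors' score (upper panel, lines with points) and genes of X (lower panel, members in red, others in grey, genes over 100 kb such as CG32816 left out), against the distance (kb) from the telomere-side end of ac. The shaded window holds 1 peak, with a score of 37.9 and beside y, and no peak lies between ac and ase.

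The distances of the 4 genes were set beside those of all genes of X that lie within the stretch covered by the list, 2640 of the 2700 in the table. None of the 4 had a peak within 1 kb, against 29.8% of genes of X. None had one within 5 kb, against 47.5% of genes of X. Within 20 kb, ac had 1 peak and the other 3 had none, against 74.8% of genes of X with at least 1. With 4 genes that share a single empty stretch these counts are 1 observation rather than 4. Distances ran to the nearest point of a gene, so a long gene can reach a peak more easily than a short one. The 4 genes are 917 to 2430 bp long, and the shares are over genes of every length. The part of gene length in them was not tested.

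From gene to nearest peak the median distance was 32.1 kb for the 4 genes and 6.04 kb for the genes of X. For ac the distance was common, since 43.5% of genes of X were at least as far from a peak. For sc 15.6% were, for ase 17.6%, and for l(1)sc 10.2%. Thus each of the 4 genes was farther from a peak than most genes of X, and none lay beyond the range of many others: 269 genes of X were at least as far as l(1)sc.

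**Figure D3:**
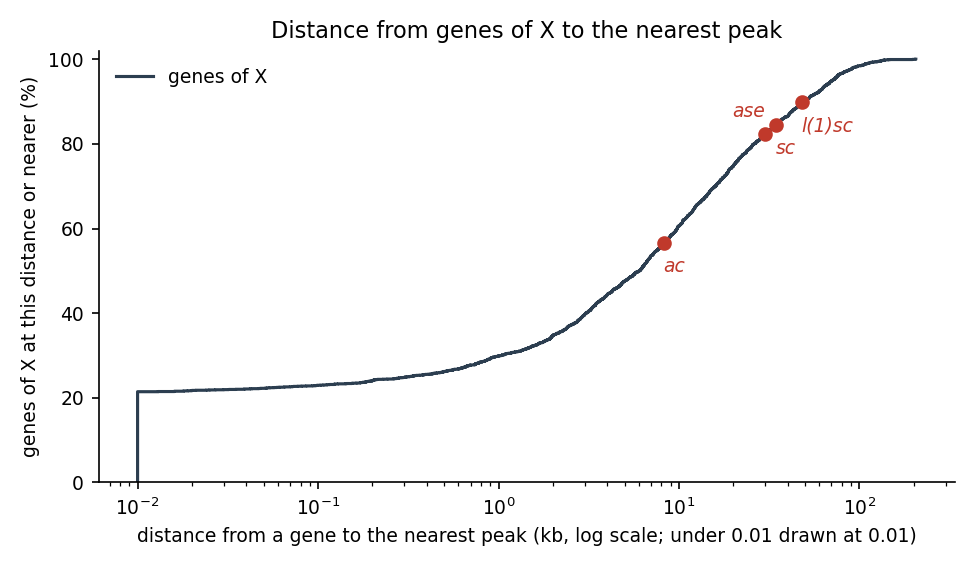
Cumulative share (%) of the 2640 genes of X against the distance to the nearest peak (kb, log scale; genes nearer than 0.01 kb are drawn at 0.01), with the 4 members as red points. The gene ac sits close to the median distance of 6.04 kb, while ase, sc and l(1)sc sit between 30.0 and 47.9 kb.

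The span from ac to ase, 93.1 kb long, held 0 peaks, where the mean density of X would give 3.28. The whole window held 1, where that density would give 4.69. This is 7.51 peaks per Mb in the window (exact 95% Poisson interval 0.19 to 41.8), against 35.4 per Mb on the rest of X (32.9 to 37.9). The interval of the window includes the density of the rest of X, so by counting error alone the densities were not told apart. These intervals treat peaks as independent, and X was taken to end at its last peak, which makes densities on X upper bounds. The first Mb of X, in which the complex lies, had 21 peaks (13.0 to 32.1 per Mb), a density below that of the rest of X. The first 5 Mb as a whole had 40.4 per Mb (35.0 to 46.4).

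Stretches of this length with at most 1 peak were not rare on X. Of all 22290 stretches as long as the window, starting every 1 kb, 23.2% held at most 1 peak, and 12.5% held none. In the first 5 Mb of X, 15.6% held at most 1 and 7.01% held none. The median stretch held 4 peaks and the fullest 25. Of the stretches as long as the span from ac to ase, 19.9% held no peak. The peak covered 0.367% of the window, against a median of 1.68% over the stretches, and 18.1% of stretches were covered as little or less. The score of 37.9 was equalled or exceeded by the median score of 32.2% of the stretches that held a peak. Among the peaks of the list scoring at or above its median, 44.2% of stretches held at most 1, as the window did. Of such peaks 22.6% of stretches held none, and the median held 2. The window was thus among the sparser stretches of X when all peaks were counted. It was below the median, by fewer peaks, when only the higher scored ones were, a cut that its 1 peak passed. The score of this peak was above the median of 26.9 over stretches, most of which had medians taken over more than 1 peak.

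**Figure D4:**
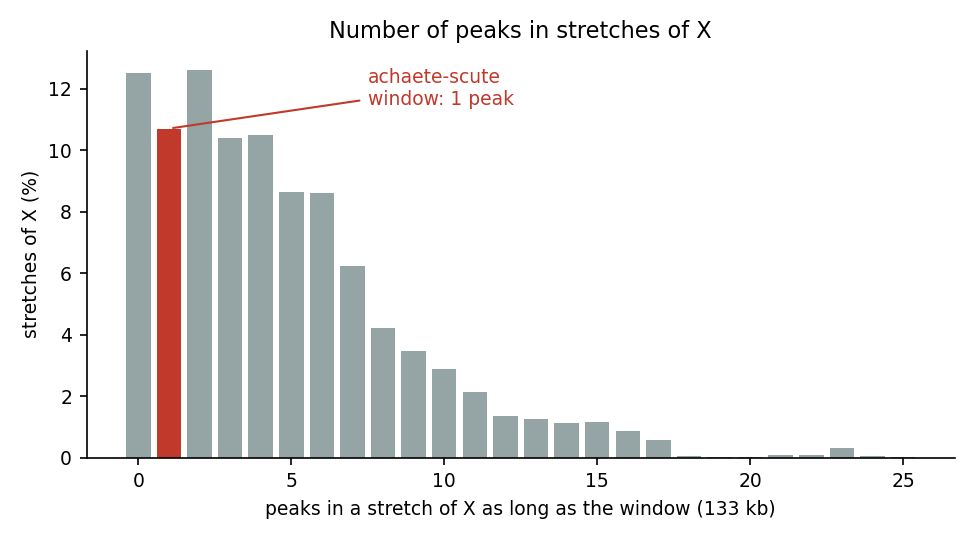
Share (%) of stretches of X as long as the window (133 kb, starting every 1 kb) by the number of peaks they held. The red bar marks stretches with 1 peak, as in the achaete-scute window; 23.2% of stretches held at most 1 and the median held 4.

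Annotated genes were spread unevenly over the window. The span from ac to ase had the telomere-side ends of 8 genes, against a median of 10 over stretches of X of its length, and the 40 kb of flanks had those of 12. The window as a whole had 20, against a median of 15 per stretch. Among stretches with a number of genes within 25% of 20, 13.9% held at most 1 peak, 4.53% held none and the median held 5. Of the 22 genes whose bodies reach into the window, 16 code for proteins, 4 give lncRNAs and 2 are pseudogenes. A peak overlapped 2 of them, CG32816 and CG3777, and the one on CG3777 lay outside the window. A peak within 1 kb was found for 4 of the 22, against 29.8% of genes of X, namely these together with y and lncRNA:yar. Inside the complex, the 3 small lncRNA genes between ac and sc lay 15.2 to 30.0 kb from a peak. Pgcl, between l(1)sc and ase, lay 55.7 kb from one, the farthest of the 22. Beyond ase, Cyp4g1, a cytochrome P450 gene, was 23.8 kb from a peak.

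The empty stretch around the complex reached from the peak beside y to the one at CG17896 and was 131 kb long. It ranked 31 of the 788 stretches between neighbouring peaks of X, whose median length was 9.98 kb and whose longest was 443 kb. Stretches of this length or more made up 30.9% of the bases of X. A long gap was therefore unusual among gaps, but much of the sequence of X lay in one.

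Genes of X with related roles were placed in the same way. Besides sc, the X-linked genes that report the number of X chromosomes are sisA, run and upd1, and their shared target is Sxl, the switch gene of sex determination. A peak within 1 kb was found for 1 of these 4, against 29.8% of genes of X, which is near that share. It was Sxl, which held 2 peaks with scores of 40.6 and 9.73. The nearest peak was 2.78 kb from sisA, 10.5 kb from upd1 and 40.0 kb from run. For sc and run, then, the distance exceeded 30 kb, and for the others it did not.

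A list of 13 genes of X that act in neural development or in Notch signalling was also examined, and for 12 of them the check of the shift within 1 Mb put the given shift above 95% of the others. The exception was N, at which the given shift placed 3 peaks with scores of 13.5 to 50.0, overlapping the gene. By the labels the transgene is the Notch genomic coding region, and reads that match both copies cannot be told apart from the list. The part of this in the 3 peaks was not tested. A peak within 1 kb was found for 5 of these 12, against 29.8% of genes of X, and for 6 of the 13 with N. The 5 were elav, sgg, br, ct and Bx. A neuronal RNA-binding protein, elav, had 1 peak (score 16.3), which also overlapped arg and lncRNA:enrr. A kinase of Wnt signalling, sgg, had 6, and br, a transcription factor of the ecdysone response, had 21. The homeodomain factor of sense organs ct had 2, and the LIM-only factor Bx had 2. The 5 genes with a peak within 1 kb are 14.0 to 89.7 kb long and the 4 proneural genes 917 to 2430 bp. The 7 without one are 1.42 kb (amx) to 16.0 kb (vnd) long, and all but vnd are shorter than each of the 5. The part of gene length in these counts was not tested. The other 7 were vnd, peb, B-H1, B-H2, pcx, amx and dx, at 2.17 kb (amx) to 91.7 kb (B-H1) from a peak. The factor vnd, which switches on proneural genes in the embryonic nerve cord, was 18.8 kb from one. Absence of a peak within 1 kb was thus shared by the 4 proneural genes with 7 of these 12 genes. It was also the state of most genes of X, since 29.8% had such a peak.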

How the data were processed

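The authors deposited 1 peak list, whose score per peak is in a unit that the sources used here do not name. Per the file headers, coordinates are on FlyBase release 5 and the source is MACS. The submitters' processing notes list MACS2, BWA and CASAVA (1.7.0.2 and 1.7.0.3) but no settings. How replicates and input entered peak calling was not stated there.

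Gene names and positions came from a RefSeq table on release 6, moved by a constant shift (33 bp less than 106000 bp). The table has no strand, so distances run from the peak edge to the nearest point of the gene in place of its start. No sequence was used, and the planned count of motifs in promoters was not run. Stretches of X were all taken, every 1 kb, instead of a random draw, and shares over them are descriptions without p-values. The genes named were the 4 members, window genes with a peak and genes of both lists; other window genes were named after their values were seen. The members and lists were chosen with earlier results of these data known. The scan of shifts was tested on simulated data with a set share of peaks placed at gene ends. That share was not fitted to the observed peaks, so the simulation does not show how surely the scan finds a shift in them. Python 3.11.15, numpy 2.4.6, pandas 2.3.3, scipy 1.17.1 and matplotlib 3.10.9 were used.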

Additional observations from a re-analysis of the deposited data

How the results depend on the processing

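Of 21 alternative values, 16 stayed the same by the measure set for each. Some of them could not have moved. With no peak within 5 kb of a member, counts at shorter distances had to be 0. Where the window held only its 1 peak, its median score had to stay 37.9. The rank of the window among stretches stayed the same in 3 of 6 alternatives. The window held 1 peak with a flank of 10 kb, with peak centres inside, among the higher scored peaks, with peaks within 1 kb merged and at the lower of the best shifts of the scan, 3 with a flank of 50 kb and 0 with no flank. The share of stretches of X with at most as many peaks as the window, 23.2%, was 44.2% for the higher scored peaks, 15.6% in the first 5 Mb of X and 13.9% among stretches with a similar number of genes. It lay between 19.4% and 23.5% with stretches end to end, with merging and, added after the data were seen, up to 20 Mb of X. No alternative distance from 0.5 to 5 kb gave a peak to any of the 4 genes. With protein-coding genes alone, or genes of the first 5 Mb alone, both added after the data were seen, 32.4% and 29.3% had a peak within 1 kb. No paired analysis was possible because peaks have no values for single libraries, and no replicate could be left out. With read depth unknown, the effect of deeper sequencing was not estimated.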
